A study of Mus musculus with 26 samples.

Results

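Between 2 and 6 h in a cAMP analog, WT S49 cells came down from an early peak in 69 genes. Some of these encode transcription factors. A later wave of 604 genes was higher at 6 h than at 2 h and included interferon-inducible GTPase genes. Of these 604 genes, 269 were still within 0.5 units of their untreated level at 6 h. Many transcripts for ribosome production were lower at 6 h, as were part of those for tRNA synthetases and for cytosolic and mitochondrial chaperones. The comparison takes the 3 arrays labelled as WT cells at 6 h (arrays 3, 18 and 38) against the 3 labelled as WT cells at 2 h (arrays 2, 17 and 37), which are 6 of the 26 arrays of the series, and values below are given in that array order. The S49 line derives from a mouse lymphoma of T-lineage cells. Both groups received 8-CPT-cAMP at 100 µM, and the groups beside them are WT cells untreated (0 h, 4 arrays) or treated for 24 h (3 arrays) and Kin- cells at 6 h and at 2 h with the same dose (3 arrays each). Kin- is a variant of the S49 line known as background for lacking protein kinase A (PKA) activity. No WT array at 2 or 6 h is untreated, so time in culture and time in the analog cannot be told apart within WT, and the labels do not say whether the arrays of a group are separate cultures. Levels are the square roots of the deposited values, and changes are differences between them in the same units, 6 h minus 2 h. A unit is read as roughly a doubling, which is an assumption, so no fold change is given.

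As background, cAMP activates PKA, which phosphorylates the transcription factor CREB at cAMP response elements (CREs) in promoters. The genes induced at once include transcription factors and the inhibitors that limit the signal itself, such as phosphodiesterases, the repressor ICER made from Crem, and phosphatases of the MAP kinases. In S49 cells the cAMP pathway is known for a G1 arrest followed by cell death, both of which need PKA.

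The fit called 1738 of 12393 genes at an adjusted p under 0.05, or 14.0%, of which 947 were higher (7.64%) and 791 lower (6.38%) at 6 h than at 2 h (limma, Benjamini-Hochberg over 22626 probe sets). Among genes called lower, 69 had been at least 1 unit above the untreated level at 2 h and are called decaying here. Another 604 genes were called higher and had been within 0.5 of the untreated level at 2 h, and these are the later wave. A further 587 were called lower with a 2 h level within 0.5 of untreated (late falls), 82 were called higher after being at least 1 unit below untreated at 2 h (recoveries), 20 rose and 13 fell further after a step of at least 1 unit in the same direction by 2 h, and 363 fitted none of these patterns. The 3 arrays at 6 h all lay beyond the 3 at 2 h for 28.9% of genes, above them for 11.5% and below them for 17.5%. The 2 h arrays enter both steps of each definition, so these class sizes are a description. Without array 38 the later wave held 398 genes. A fit of the 6 arrays alone called 1335 probe sets, against 2948 with all arrays. The fit with the series of arrays as a block, below, also used these 6 arrays alone and called 2525.

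Promoters of 3 decaying genes and 2 later-wave genes are shown as examples of the letters searched for below. Each sequence is RefSeq's on GRCm38.p6, from 250 bases before to 50 after an annotated start. Capitals mark, in every window, matches on either strand to the CRE TGACGTCA, to its shorter form TGACG and to the interferon-stimulated element (GAAA, any 2 bases, GAAA), so that CGTCA is the shorter form read on the other strand. The interferon element is matched in Gbp2 and Gbp3 and also in the decaying gene Ppp1r15a. Maff has another annotated start (chr15:79348152-79348451) whose window holds the shorter form of the CRE and no full one. Maff and Nr4a1 encode transcription factors, and Ppp1r15a encodes the GADD34 subunit that directs eIF2α dephosphorylation.
Maff (chr15:79347270-79347569, plus strand): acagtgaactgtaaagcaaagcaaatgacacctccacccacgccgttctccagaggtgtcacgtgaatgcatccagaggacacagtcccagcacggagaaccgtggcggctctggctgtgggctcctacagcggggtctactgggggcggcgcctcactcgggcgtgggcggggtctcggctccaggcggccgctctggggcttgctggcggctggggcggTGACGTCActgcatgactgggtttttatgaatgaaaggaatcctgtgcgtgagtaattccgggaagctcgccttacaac
Ppp1r15a (chr7:45526219-45526518, minus strand): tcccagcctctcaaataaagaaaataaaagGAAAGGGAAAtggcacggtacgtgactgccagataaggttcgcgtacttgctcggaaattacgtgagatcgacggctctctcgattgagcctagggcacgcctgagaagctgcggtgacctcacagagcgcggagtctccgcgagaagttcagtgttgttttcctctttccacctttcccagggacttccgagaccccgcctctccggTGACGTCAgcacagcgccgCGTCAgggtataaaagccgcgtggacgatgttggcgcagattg
Nr4a1 (chr15:101266596-101266895, plus strand): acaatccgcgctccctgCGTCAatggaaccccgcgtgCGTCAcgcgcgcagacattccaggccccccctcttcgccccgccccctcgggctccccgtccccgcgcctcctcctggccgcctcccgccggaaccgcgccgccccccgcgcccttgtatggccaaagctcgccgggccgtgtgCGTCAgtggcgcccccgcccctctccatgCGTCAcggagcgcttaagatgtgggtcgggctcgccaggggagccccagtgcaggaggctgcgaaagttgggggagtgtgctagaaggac
Gbp2 (chr3:142620413-142620712, plus strand): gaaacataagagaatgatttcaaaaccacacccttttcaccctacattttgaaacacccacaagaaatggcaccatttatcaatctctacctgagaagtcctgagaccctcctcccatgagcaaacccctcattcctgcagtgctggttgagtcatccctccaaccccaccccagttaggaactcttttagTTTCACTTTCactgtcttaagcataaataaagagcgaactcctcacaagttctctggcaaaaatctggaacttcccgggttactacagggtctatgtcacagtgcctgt
Gbp3 (chr3:142559794-142560093, plus strand): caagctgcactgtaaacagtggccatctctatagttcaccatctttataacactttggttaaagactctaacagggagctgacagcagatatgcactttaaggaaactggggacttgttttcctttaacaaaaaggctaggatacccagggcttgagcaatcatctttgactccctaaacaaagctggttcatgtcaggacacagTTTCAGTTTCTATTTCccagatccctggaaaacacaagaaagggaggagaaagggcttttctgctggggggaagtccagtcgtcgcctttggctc

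The full CRE was present in the promoter window of 8 of the 50 decaying genes that had one, or 16.0%, against 2.99% of the 9887 genes with a window. These 8 genes were Btg2, Maff, Ppm1d, Ppp1r15a, St7, Tinf2, Wsb1 and Zfand2a. The shorter form, which lies within each full CRE, was in 60.0% of the decaying genes and in 31.4% of all genes. Among the later-wave genes the full CRE was in 2.58%, close to the share of all genes. The interferon element was in 4.57% of the later-wave genes, in 4.00% of the decaying genes (2 of 50, Ppp1r15a and Socs1) and in 3.84% of all genes. It was in 4 of the 11 interferon-response genes called higher that had a window (36.4%; B2m, Gbp2, Gbp3 and Irf2). The element was chosen for this search after the interferon genes had been seen to rise, a match is a run of letters and not a shown binding site, and no share was tested.

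The immediate-early list, transcription factors and regulators that respond within minutes to hours, held 30 measured genes, of which 8 were called lower and 1 higher. Its median change was -0.24, against -0.08 over all genes. Maff, a small Maf transcription factor, had 3.03, 2.89 and 3.13 at 6 h, against 4.79, 6.60 and 6.03 at 2 h. The groups stood well apart, the 6 h arrays lay within 0.5 of the untreated mean of 2.74, and the change was -2.79 ± 0.26 (SE; adjusted p = 1.3e-06). Zfp36, the tristetraprolin gene whose product destabilises AU-rich mRNAs, had 7.59, 8.92 and 8.67 at 6 h, against 10.44, 10.51 and 10.52 at 2 h. It fell by 2.09 ± 0.22 (adjusted p = 4.2e-06), with array 3 the lowest of the 6 h arrays. Nr4a1, an orphan nuclear receptor, had 9.93, 10.29 and 10.66 at 6 h, against 12.52, 12.24 and 12.07 at 2 h, a change of -1.98 ± 0.39 (adjusted p = 0.0016). Its 6 h mean of 10.30 was still above the untreated mean of 8.13. Fos, the AP-1 subunit, had 7.29, 8.50 and 7.95 at 6 h, against 9.52, 8.86 and 9.74 at 2 h. The Fos groups came close, at 8.50 against 8.86, and the change of -1.46 ± 0.42 passed with an adjusted p of 0.024. Without array 2, 37, 3 or 38 in turn the adjusted p of Fos lay between 0.054 and 0.11, it was 0.10 with the series of arrays as a block, and it ran from 0.0045 to 0.26 over the alternatives other than arrays 1 to 14 alone.

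Ier2, a nuclear immediate-early regulator, had 8.65, 8.61 and 8.56 at 6 h, against 9.80, 9.24 and 9.29 at 2 h (change -0.84 ± 0.16, adjusted p = 0.0017). Fosb, another AP-1 subunit, had 2.36, 2.38 and 2.39 at 6 h, against 2.42, 3.61 and 3.58 at 2 h. Its early peak was therefore absent from array 2, and its adjusted p of 0.0056 became 0.15 with the block (5e-08 to 0.22 over the alternatives). Irf1, an interferon regulatory factor, had 9.37, 10.23 and 10.75 at 6 h, against 10.27, 11.34 and 11.76 at 2 h. The Irf1 groups overlap, and the change of -1.0 ± 0.33 (adjusted p = 0.047) lost its call without array 17, 37, 18 or 3 in turn. Without array 3 the Irf1 change was -0.63, with an adjusted p of 0.24, in a range of 0.0017 to 0.30 over the alternatives. The gene called higher was Ier5, at 0.48 ± 0.10 (adjusted p = 0.0018, 0.050 with the block, 0.00022 to 0.35 over the alternatives). Without array 3 the list had 5 members called lower, and in the fit of the 6 arrays alone 4.

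Other members of the early set were not called between the 2 times. Junb, which encodes an AP-1 subunit, had 6.52, 6.91 and 7.25 at 6 h, against 7.23, 8.43 and 8.27 at 2 h, and its change of -1.08 ± 0.37 had an adjusted p of 0.056. It passed with the block, at 0.042, and without array 2, at 0.015, in a range of 0.0011 to 0.22. Jun changed by -0.23 and Nr4a2 by -0.24, with adjusted p of 0.099 and 0.14, and both passed without array 2, at 0.030 and 0.041 (ranges 0.0013 to 0.35 and 0.020 to 0.38). The levels of Egr1 (mean 2.34 at 6 h and 2.30 at 2 h) and Nr4a3 (2.89 and 3.13) were near their untreated means of 2.26 and 3.11. The Nr4a3 values are from the brighter of 2 probe sets, and the other one was called lower.

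**Figure D1:**
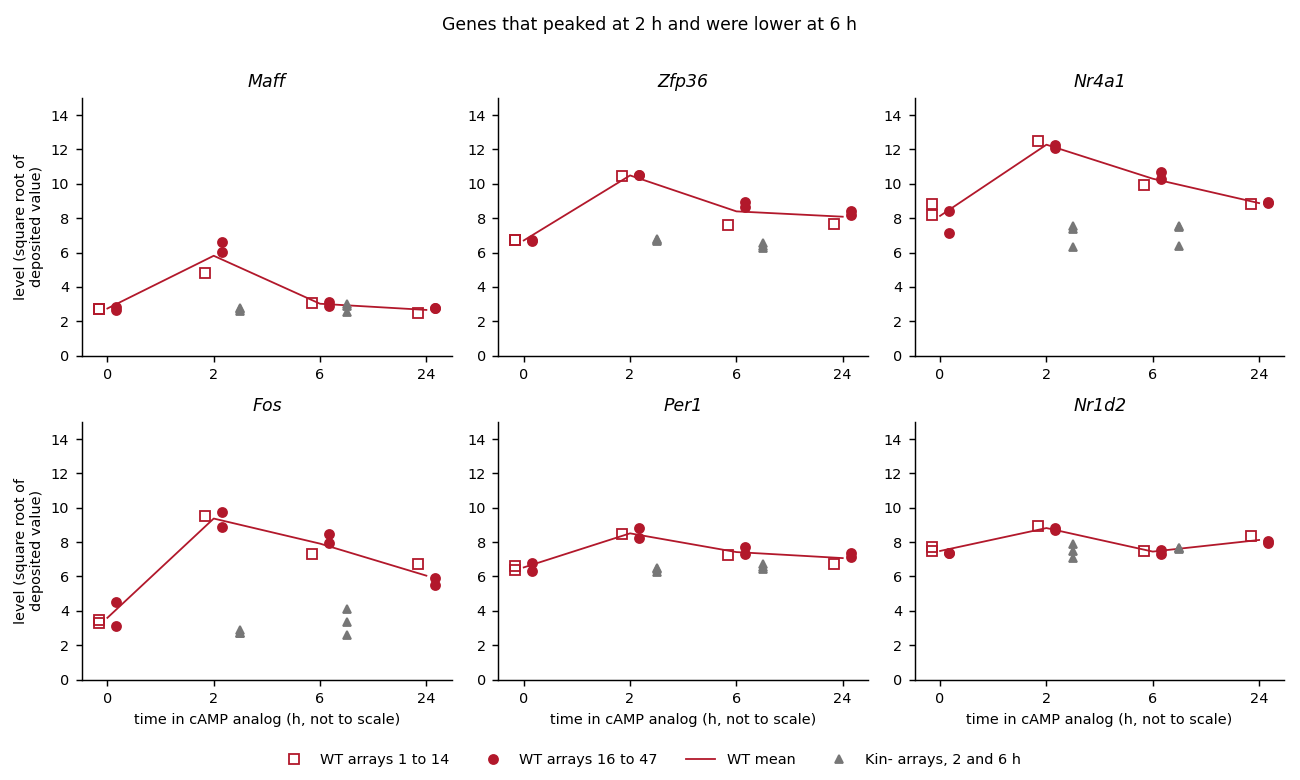
Levels of 6 genes in WT cells at 0, 2, 6 and 24 h, as the square root of the deposited value on an axis that starts at 0. Red points are single WT arrays (open squares, arrays 1 to 14; filled circles, arrays 16 to 47), the line joins the means of 4, 3, 3 and 3 arrays, and grey triangles are Kin- arrays at 2 and 6 h. Maff, Zfp36, Nr4a1, Per1 and Nr1d2 are lower on every 6 h array than on every 2 h array by at least 0.5, while for Fos the nearest arrays are 8.50 at 6 h and 8.86 at 2 h.

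Decaying genes outside the immediate-early list had other roles. Sgtb, a cochaperone of the glutamine-rich tetratricopeptide family, had 3.69, 6.74 and 4.80 at 6 h, against 7.22, 7.45 and 7.43 at 2 h. The 2 h arrays agreed closely while the 6 h arrays were spread over 3 units, and the change of -2.29 ± 0.46 (adjusted p = 0.0020) lost its call with the block (adjusted p = 0.092, range 7.2e-06 to 0.14). Bard1, the partner of BRCA1, had 5.67, 5.90 and 5.79 at 6 h, against 7.50, 7.72 and 7.51 at 2 h (change -1.79 ± 0.22, adjusted p = 1.6e-05). Its 24 h mean of 3.96 lay below the untreated mean of 6.04. Nup98, a nuclear pore component, had 7.31, 8.16 and 7.57 at 6 h, against 9.01, 9.73 and 9.60 at 2 h (change -1.77 ± 0.22, adjusted p = 2.0e-05). Ppp1r15a had 8.45, 8.90 and 8.51 at 6 h, against 9.94, 10.55 and 10.40 at 2 h, a change of -1.68 ± 0.24 (adjusted p = 7.9e-05) that left it above the untreated mean of 6.47. Over the 69 decaying genes the median change was -0.99, 26 were within 0.5 of the untreated level at 6 h, and 23 were still at least 1 unit above it. At 24 h 28 were at least 1 unit above it and 26 within 0.5. The median distance above untreated was 0.62 at 6 h and 0.64 at 24 h, so the class as a whole came no lower after 6 h.

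Signalling inhibitors divided. Socs1, an inhibitor of JAK kinases, had 3.80, 3.93 and 3.83 at 6 h, against 5.05, 5.14 and 5.30 at 2 h, and fell by 1.31 ± 0.24 (adjusted p = 0.00092). Of 22 measured genes of cAMP feedback (phosphodiesterases, PKA subunits and inhibitors, CREB factors), 3 were called lower and 1 higher. The shares over all genes were 6.38% lower and 7.64% higher. Pde4b, a cAMP phosphodiesterase, had 5.99, 6.03 and 6.20 at 6 h, against 6.49, 7.27 and 7.74 at 2 h, a change of -1.09 ± 0.21 (adjusted p = 0.0014; 0.061 with the block; 1.4e-05 to 0.11 over the alternatives). Its 24 h mean was higher again, at 6.99. In Kin- cells Pde4b changed by -0.52, with no call. The difference between the WT and Kin- changes of Pde4b was not called either (-0.57, limma adjusted p = 0.38). Prkar1a, the regulatory subunit that binds cAMP, moved the other way, with 12.06, 12.48 and 12.33 at 6 h, against 11.66, 11.77 and 11.98 at 2 h (change 0.49 ± 0.11, adjusted p = 0.0056; 0.055 with the block; 0.00019 to 0.11). Crem, whose intronic promoter gives the repressor ICER, had 9.44, 10.77 and 8.88 at 6 h, against 10.97, 10.16 and 9.49 at 2 h. These groups overlap and lie far above the untreated mean of 4.14, and the change of -0.51 ± 0.39 was not called (adjusted p = 0.37).

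Some genes with a high 2 h level therefore showed no called decay. Dusp1, a MAP kinase phosphatase, averaged 10.15 at 6 h and 10.66 at 2 h, against 6.63 untreated (change -0.51 ± 0.48, adjusted p = 0.47). Rgs2, which turns off Gq signalling, averaged 9.80 at 6 h and 10.80 at 2 h, against 5.36 untreated. Its change of -1.0 ± 0.52 was not called (adjusted p = 0.21) but passed with the block (0.043; 0.037 to 0.57 over the alternatives). Nfil3, a bZIP repressor, averaged 7.13 at 6 h and 7.97 at 2 h, against 4.03 untreated (change -0.84 ± 0.67, adjusted p = 0.39). Dusp10, another MAP kinase phosphatase, did fall, with 11.08, 11.75 and 11.53 at 6 h, against 12.18, 12.46 and 12.32 at 2 h (change -0.87 ± 0.17, adjusted p = 0.0019). Taken as the mean of its probe sets, Dusp10 had a change of -0.55 and an adjusted p of 0.22 (0.00067 to 0.22 over the alternatives). Sgip1, an adaptor of clathrin-coated pits, averaged 11.08 at 6 h and 10.73 at 2 h, against 3.88 untreated, and was not called (change 0.35 ± 0.33, adjusted p = 0.47).

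Among 19 measured clock genes, 3 were called lower and 1 higher, beside 6.38% and 7.64% over all genes. Per1, a core repressor of the clock and a known CREB target, had 7.24, 7.33 and 7.69 at 6 h, against 8.46, 8.83 and 8.25 at 2 h (change -1.09 ± 0.18, adjusted p = 0.00035; 0.052 with the block; 3.8e-05 to 0.052). Nr1d2, the REV-ERBβ receptor gene, had 7.49, 7.56 and 7.30 at 6 h, against 8.93, 8.70 and 8.83 at 2 h. Its fall of -1.37 ± 0.17 (adjusted p = 2.2e-05) brought the 6 h mean of 7.45 back to the untreated mean of 7.49. By 24 h the mean of Nr1d2 was higher again, at 8.13.

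Interferon-inducible GTPase genes were among the largest rises. They belong to a wider list of the interferon response, which also holds antigen-processing genes and interferon regulatory factors, and of its 34 measured genes 14 were called higher and 2 lower, and its median change was 0.28, against -0.08 over all genes. Gbp2, a guanylate-binding GTPase of cell-autonomous immunity, had 5.03, 7.76 and 7.94 at 6 h, against 2.86, 3.01 and 3.20 at 2 h. The 2 h levels lay at the untreated mean of 2.94, and the change was 3.89 ± 0.61 (adjusted p = 0.00019). Gbp2b, a member of the same family, had 1.76, 6.95 and 6.51 at 6 h, against 1.60, 1.65 and 1.70 at 2 h. Array 3 thus showed almost none of the rise seen on arrays 18 and 38, and the call (change 3.42 ± 0.75, adjusted p = 0.0039) did not hold with the block (0.15; 6.7e-16 to 0.22 over the alternatives). Gbp3, a further member, had 6.54, 8.50 and 8.68 at 6 h, against 4.89, 5.23 and 5.60 at 2 h (change 2.67 ± 0.35, adjusted p = 3.7e-05; 0.058 in the fit of the 6 arrays alone; 6.6e-09 to 0.058).

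The immunity-related GTPases and other members of the list were mixed. Of the 34 members 18 were not called. Among these were the GTPases Irgm1 (0.0055) and Irgm2 (-0.95), and Ifit1 (-0.11), Ifit3 (-0.20), Mx1 (0.21), Mx2 (-0.11), Oas1a (-0.16) and Rsad2 (-0.16). Iigp1 had 4.57, 8.38 and 8.36 at 6 h, against 3.87, 4.05 and 4.34 at 2 h (change 3.01 ± 0.84, adjusted p = 0.021), and Gbp6 had 6.39, 10.16 and 10.06 at 6 h, against 3.67, 5.32 and 7.56 at 2 h (change 3.35 ± 0.89, adjusted p = 0.016). The Gbp6 groups overlap. Both calls were lost without array 17, 18 or 38, and that of Gbp6 also without array 2, with adjusted p between 0.052 and 0.12, and that of Iigp1 was lost with the block, at 0.10 (ranges 4.4e-06 to 0.17 for Iigp1 and 0.00018 to 0.24 for Gbp6). Ifi47, an interferon-inducible GTPase, had 9.88, 11.87 and 12.10 at 6 h, against 7.56, 8.62 and 9.93 at 2 h (change 2.58 ± 0.52, adjusted p = 0.0021; 0.14 in the fit of the 6 arrays alone; 1.4e-05 to 0.14), and its arrays overlap, since array 37 at 2 h stood above array 3 at 6 h. Igtp, a GTPase that was already up at 2 h, averaged 10.95 at 6 h and 10.70 at 2 h, against 7.07 untreated (change 0.25 ± 0.60, adjusted p = 0.78). Parp14, an ADP-ribosyltransferase induced by interferon, had 8.25, 9.41 and 9.55 at 6 h, against 5.59, 6.13 and 7.42 at 2 h (change 2.69 ± 0.35, adjusted p = 2.8e-05; 0.051 in the fit of the 6 arrays alone; 5.8e-07 to 0.051). The list members called lower were Irf1, above, and Ifi204, a DNA sensor of the p200 family, with -0.76 ± 0.21 (adjusted p = 0.017). The Ifi204 call was lost without array 17 or 38, at 0.11 and 0.12, and with the block, at 0.063 (0.00043 to 0.16). Without array 17, 18 or 38 the list had 8, 9 and 7 members called higher, and in the fit of the 6 arrays alone 5.

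**Figure D2:**
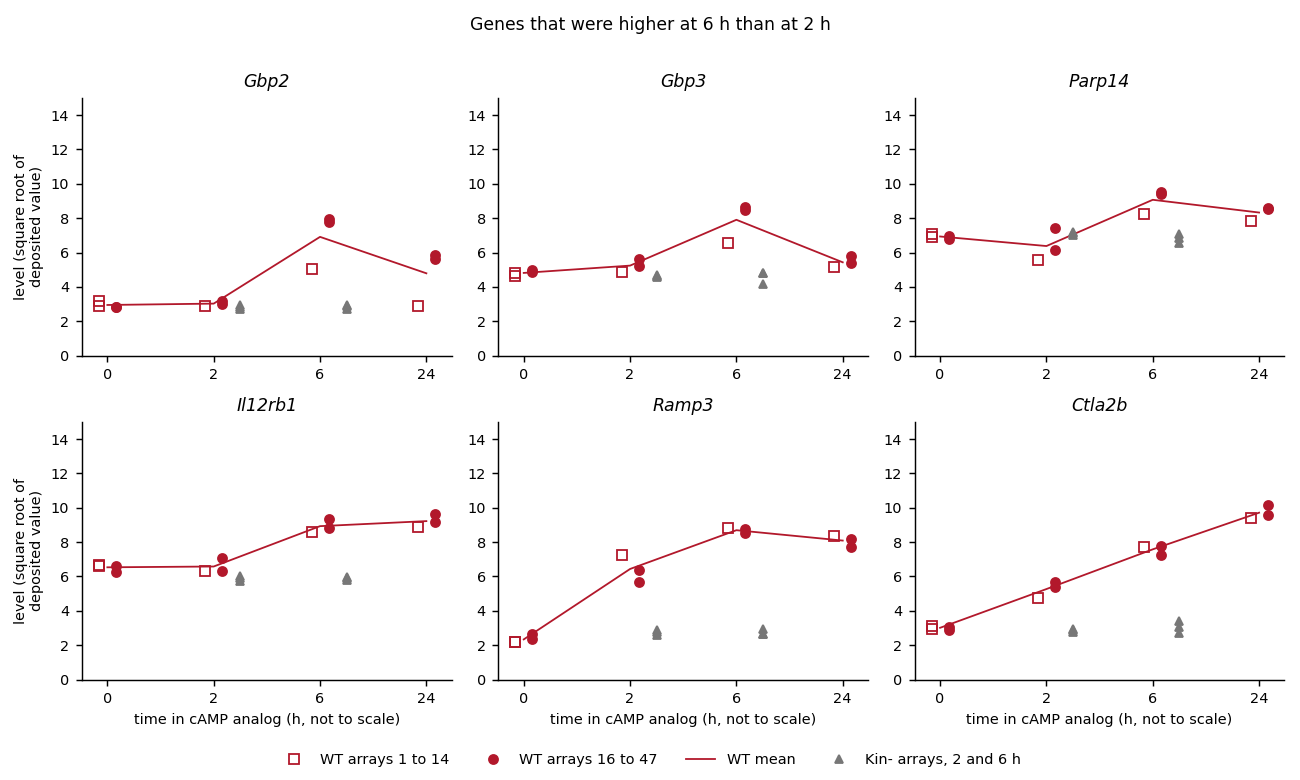
Levels of 6 genes in WT cells at 0, 2, 6 and 24 h, as the square root of the deposited value on an axis that starts at 0, drawn as in the plot of decaying genes. For Gbp2 and Gbp3 the open square at 6 h (array 3, levels 5.03 and 6.54) lies below the filled circles, and by 24 h both means have come down. Ramp3 and Ctla2b were already above the untreated level at 2 h, and the Kin- arrays stay low for both.

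Other later-wave genes rose alike on the 3 arrays. Il12rb1, a chain of the IL-12 and IL-23 receptors, had 8.62, 9.35 and 8.82 at 6 h, against 6.33, 6.34 and 7.08 at 2 h, and stayed at a mean of 9.22 at 24 h (change 2.35 ± 0.24, adjusted p = 2.2e-06). Pglyrp2, an amidase of bacterial peptidoglycan, had 6.28, 7.01 and 6.93 at 6 h, against 3.55, 4.40 and 5.12 at 2 h (change 2.38 ± 0.31, adjusted p = 2.9e-05). Cd37, a leukocyte tetraspanin, had 9.34, 9.37 and 9.31 at 6 h, against 7.48, 7.92 and 8.12 at 2 h (change 1.50 ± 0.15, adjusted p = 2.2e-06). Itgb2, the β2 integrin chain of LFA-1, had 10.30, 10.20 and 10.26 at 6 h, against 8.97, 9.25 and 9.26 at 2 h (change 1.09 ± 0.09, adjusted p = 5.8e-07). The 3 arrays at 6 h agreed closely for both leukocyte surface genes. Of the 604 later-wave genes 90 rose by at least 1 unit, and the median change was 0.59. At 6 h 269 of them were within 0.5 of the untreated level and 91 were at least 1 unit above it. At 24 h 199 were at least 1 unit above it.

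Some stress and quiescence genes also rose. Sesn1 and Sesn3, sestrins that restrain mTORC1, changed by 1.14 ± 0.25 and 1.33 ± 0.30 (adjusted p = 0.0046 for each), and that of Sesn3 had 0.072 in the fit of the 6 arrays alone (0.00017 to 0.072). Trp53inp1, a p53-inducible regulator of autophagy and cell death, had 10.43, 11.22 and 11.03 at 6 h, against 9.34, 9.65 and 9.81 at 2 h (change 1.29 ± 0.23, adjusted p = 0.00076), and its mean was 12.28 at 24 h. Mxd4, a partner of Max that opposes Myc, had 10.05, 10.14 and 10.27 at 6 h, against 9.15, 9.50 and 9.52 at 2 h (change 0.76 ± 0.17, adjusted p = 0.0057). Its means ran 8.85, 9.39, 10.15 and 12.17 at 0, 2, 6 and 24 h. The lists these genes come from were mixed, with 4 of 24 FoxO and quiescence genes called higher and 2 lower, and 3 of 25 p53 and Gadd45 genes called higher and 3 lower. Beside them, 7.64% of all genes were called higher and 6.38% lower. Myc itself averaged 8.35 at 6 h and 8.04 at 2 h, below 10.49 untreated, with no called change between them (0.31 ± 0.34, adjusted p = 0.52).

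For some genes of the cell death machinery the result depended on the probe set read, but not for Bid and Bak1. Of 30 measured BCL2-family and caspase genes limma called 5 higher and 0 lower on the brightest probe set of each, with 6 lower at an unadjusted p under 0.05. The shares over all genes were 7.64% higher and 6.38% lower. Cflar, the caspase-8 inhibitor FLIP, had 8.26, 8.53 and 8.94 at 6 h, against 7.10, 7.32 and 7.53 at 2 h (change 1.26 ± 0.17, adjusted p = 3.9e-05), and as the mean of its probe sets it changed by 0.27, with an adjusted p of 0.059 (3.6e-06 to 0.059). Bid, a BH3-only activator, had 9.83, 9.44 and 9.56 at 6 h, against 8.80, 8.78 and 8.47 at 2 h (change 0.93 ± 0.12, adjusted p = 3.2e-05), and came back towards its untreated mean of 10.54. Bak1, a pore-forming effector, had 9.16, 8.93 and 8.98 at 6 h, against 8.43, 8.32 and 8.59 at 2 h (change 0.58 ± 0.11, adjusted p = 0.00090). The other two were Casp9, the initiator caspase of the mitochondrial pathway (0.53 ± 0.14, adjusted p = 0.015), and Xiap, a caspase inhibitor (0.55 ± 0.15, adjusted p = 0.018). Casp9 lost its call without array 17, 18 or 38, at 0.066 to 0.093, and with the block, at 0.096 (0.00033 to 0.24). Xiap lost its call without array 2, 18 or 38, at 0.055 to 0.086, and turned to -0.18 as the mean of its probe sets (0.0020 to 0.20). Bcl2l11, the BH3-only gene BIM, had 10.17, 10.65 and 10.37 at 6 h, against 10.67, 10.83 and 10.73 at 2 h on its brightest probe set, which was not called (-0.35 ± 0.19, adjusted p = 0.23). Of its 5 probe sets 4 were called lower, and as their mean it changed by -1.34, with an adjusted p of 2.5e-05 (2.5e-05 to 0.51).

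Some genes of G protein signalling were among those called higher. Of 31 measured genes of G protein signalling limma called 8 higher and 0 lower, with 1 lower at an unadjusted p under 0.05. Over all genes 7.64% were called higher. The list as a whole did not shift, with a median change of -0.07, against -0.08 over all genes, and 15 members positive and 16 negative. Ramp3, which escorts the calcitonin-receptor-like receptor to the surface, had 8.80, 8.53 and 8.77 at 6 h, against 7.26, 5.66 and 6.39 at 2 h (change 2.26 ± 0.27, adjusted p = 1.4e-05). Its untreated mean was 2.34. Rgs14, a GTPase-activating protein for Gi, had 8.65, 8.81 and 8.90 at 6 h, against 7.85, 7.51 and 8.10 at 2 h (change 0.97 ± 0.14, adjusted p = 6.8e-05), with 2 h levels below its untreated mean of 8.38. Grk5, a receptor kinase, had 7.56, 7.66 and 7.86 at 6 h, against 6.77, 6.49 and 6.65 at 2 h (change 1.06 ± 0.25, adjusted p = 0.0068), beside a change of 0.53 in Kin- cells and an untreated WT mean of 6.43.

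Secreted and T-cell surface genes that were above untreated at 2 h rose further. Wif1, a secreted Wnt inhibitor, had 12.28, 12.01 and 12.13 at 6 h, against 10.11, 9.35 and 10.18 at 2 h (change 2.26 ± 0.38, adjusted p = 0.00035; 0.059 on the log2 scale of the deposited values; 3.9e-05 to 0.059). Ctla2b and Ctla2a, related genes for cathepsin inhibitors of activated T cells, rose together. Ctla2b had 7.71, 7.79 and 7.24 at 6 h, against 4.76, 5.68 and 5.37 at 2 h (change 2.31 ± 0.21, adjusted p = 1.1e-06), and Ctla2a had 10.04, 10.27 and 9.78 at 6 h, against 7.94, 8.59 and 8.77 at 2 h (change 1.60 ± 0.22, adjusted p = 4.7e-05). The 2 genes are close paralogs, so each value is uncertain where a probe set could bind both transcripts. Ctla4, an inhibitory receptor of T cells, had 10.79, 11.05 and 9.91 at 6 h, against 8.77, 9.84 and 9.54 at 2 h (change 1.20 ± 0.38, adjusted p = 0.040), and the nearest arrays were 9.91 and 9.84. Its call was lost without array 2, 37, 18 or 3, at 0.066 to 0.16, and with the block, at 0.11 (0.017 to 0.18 over the alternatives).

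Lmna (lamins A and C), Tnfrsf18 (the receptor GITR) and Gzmb (granzyme B) continued from high 2 h levels without a call. Lmna had 9.86, 9.07 and 9.36 at 6 h, against 9.0, 8.11 and 8.36 at 2 h, with a change of 0.94 ± 0.32 and an adjusted p of 0.054. It passed with the block (0.022), without array 2 (0.024) and without array 18 (0.049), in a range of 0.010 to 0.33. Tnfrsf18 had 10.31, 11.00 and 10.75 at 6 h, against 9.77, 9.57 and 10.08 at 2 h, and its change of 0.88 ± 0.29 had an adjusted p of 0.052 (0.034 without array 3; 0.0012 to 0.18). Gzmb had 6.72, 9.32 and 7.12 at 6 h, against 7.28, 7.37 and 6.47 at 2 h, with array 18 alone far above the others (change 0.68 ± 0.55, adjusted p = 0.40).

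Among 41 measured T-lineage genes 5 were called higher and 6 lower, beside 7.64% and 6.38% over all genes. Rag1, the recombinase of antigen receptor genes, had 6.76, 5.90 and 5.58 at 6 h, against 8.71, 9.16 and 8.72 at 2 h. It was already below its untreated mean of 11.56 at 2 h and changed by a further -2.78 ± 0.21 (adjusted p = 1.1e-07). Dntt, the terminal transferase that adds bases at V(D)J joints, had 11.13, 10.11 and 9.93 at 6 h, against 11.76, 11.43 and 11.33 at 2 h (change -1.12 ± 0.22, adjusted p = 0.0017; 0.12 in the fit of the 6 arrays alone; 1.0e-05 to 0.12), and was back at a mean of 11.96 at 24 h. Ptcra, the pre-T-cell receptor α chain, had dropped by 2 h and averaged 4.81 at 6 h and 4.54 at 2 h, against 9.15 untreated (change 0.26 ± 0.55, adjusted p = 0.75). Dtx1, a Notch target and regulator, moved the other way, with 10.08, 9.21 and 9.60 at 6 h, against 8.99, 8.18 and 7.99 at 2 h (change 1.24 ± 0.24, adjusted p = 0.0017; 0.092 in the fit of the 6 arrays alone; 1.3e-05 to 0.092).

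Other large falls were spread over functions. Il10, the anti-inflammatory cytokine, had 2.83, 3.01 and 3.22 at 6 h, against 4.40, 5.48 and 5.32 at 2 h, and 7.68 on average untreated (change -2.05 ± 0.36, adjusted p = 0.00064). Stra6, the receptor for retinol-binding protein, had 5.34, 4.40 and 5.00 at 6 h, against 6.72, 7.45 and 7.26 at 2 h (change -2.23 ± 0.29, adjusted p = 3.3e-05). Zdhhc14, a palmitoyltransferase, had 7.04, 6.66 and 7.04 at 6 h, against 9.62, 9.22 and 8.47 at 2 h (change -2.19 ± 0.27, adjusted p = 2.0e-05).

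**Figure D3:**
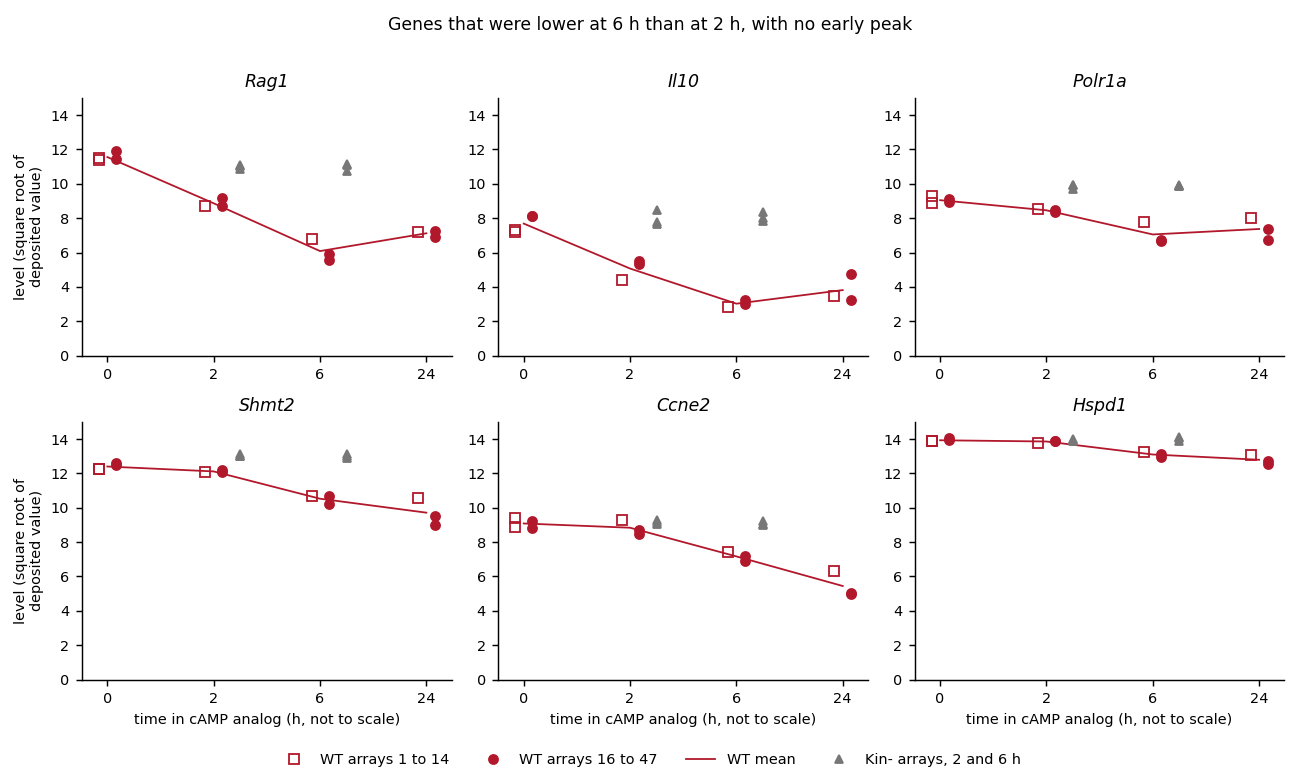
Levels of 6 genes in WT cells at 0, 2, 6 and 24 h, as the square root of the deposited value on an axis that starts at 0, drawn as in the plot of decaying genes. Rag1 and Il10 fall at both steps from 0 h, while Shmt2, Ccne2 and Hspd1 start to fall after 2 h. For Polr1a the open square at 6 h (array 3, level 7.79) lies above the filled circles at 6.66 and 6.70, and the Kin- arrays show no fall.

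Genes of ribosome production gave the most calls of any list. Of 83 measured genes of ribosome biogenesis and RNA polymerase I, 46 were called lower and 1 higher, and the median change was -0.53, against -0.08 over all genes. The median was -0.56 on arrays 16 to 47 and -0.48 on arrays 1 to 14, while that of the Kin- cells was -0.01. The list was already lower at 2 h, with a median step from 0 to 2 h in WT cells of -0.40, against 0.05 over all genes. Polr1a, the largest subunit of RNA polymerase I, had 7.79, 6.66 and 6.70 at 6 h, against 8.51, 8.47 and 8.39 at 2 h (change -1.41 ± 0.25, adjusted p = 0.00056; 0.058 in the fit of the 6 arrays alone; 1.1e-06 to 0.058). Nolc1, a nucleolar and coiled-body phosphoprotein, had 10.57, 10.10 and 9.97 at 6 h, against 11.55, 11.58 and 11.50 at 2 h (change -1.33 ± 0.19, adjusted p = 6.9e-05). Exosc5, a subunit of the RNA exosome, had 8.01, 7.15 and 7.27 at 6 h, against 9.06, 8.67 and 8.68 at 2 h (change -1.33 ± 0.25, adjusted p = 0.0011). In these 3 genes array 3 fell least.

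Mdn1, the midasin ATPase of large subunit assembly, named among the largest late falls, had 8.13, 7.54 and 7.52 at 6 h, against 9.15, 9.56 and 9.37 at 2 h (change -1.63 ± 0.21, adjusted p = 3.2e-05). Polr1b, another subunit of the polymerase, was not called (-0.61 ± 0.37, adjusted p = 0.27) except with the block (0.031; 0.031 to 0.44 over the alternatives). The member called higher was Taf1b, of the polymerase's selectivity factor, at 0.63 ± 0.15 (adjusted p = 0.0088). The Taf1b call was lost without array 17 or 18, at 0.053 and 0.067, and with the block, at 0.15 (0.0014 to 0.15). Without array 38 the list had 30 members called lower, and in the fit of the 6 arrays alone 24. Of the genes for the ribosome's own proteins, 1 of 42 cytosolic and 6 of 68 mitochondrial ones were called lower, with medians of -0.02 and -0.17. Their median steps from 0 to 2 h were 0.02 and -0.30. Of 68 genes of oxidative phosphorylation 7 were called lower, with a median of -0.17. Beside these lists, 6.38% of all genes were called lower. Of 24 cholesterol genes limma called none, with 8 at an unadjusted p under 0.05 (6 higher, 2 lower).

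Part of the transcripts for tRNA charging, amino acid transport and folate metabolism were called lower as well. Of 26 measured aminoacyl-tRNA synthetase genes limma called 12 lower and 0 higher, with 1 higher at an unadjusted p under 0.05. The median change was -0.43, after a median step of -0.18 from 0 to 2 h. Iars, for isoleucine, had 10.26, 10.43 and 10.73 at 6 h, against 11.31, 11.52 and 11.60 at 2 h (change -1.0 ± 0.15, adjusted p = 0.00014), and Yars, for tyrosine, had 7.21, 7.19 and 7.57, against 8.24, 8.25 and 8.42 (change -0.98 ± 0.14, adjusted p = 5.6e-05). Vars, for valine, changed by -0.94 ± 0.18 (adjusted p = 0.0011), and 0.061 with the block (1.9e-06 to 0.061 over the alternatives). Without array 18, and in the fit of the 6 arrays alone, there were 7 synthetase genes called lower.

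Of 33 measured genes of the ATF4 response, serine and folate enzymes and amino acid transporters, 11 were called lower and 1 higher, with a median of -0.58, and with the block 17 were called lower. Shmt2, the mitochondrial serine hydroxymethyltransferase, had 10.69, 10.20 and 10.70 at 6 h, against 12.10, 12.06 and 12.20 at 2 h (change -1.59 ± 0.23, adjusted p = 0.00011), and averaged 9.72 at 24 h. Shmt1, its cytosolic counterpart, had 8.38, 6.12 and 7.01 at 6 h, against 10.03, 9.12 and 8.99 at 2 h (change -2.21 ± 0.52, adjusted p = 0.0068), and 0.052 without array 18 (9.3e-05 to 0.098). Mthfd1, a trifunctional folate enzyme, had 10.10, 9.58 and 9.67 at 6 h, against 11.13, 10.79 and 10.92 at 2 h (change -1.16 ± 0.23, adjusted p = 0.0019). The member called higher was Chdh, choline dehydrogenase, with 7.23, 6.83 and 7.66 at 6 h, against 6.16, 6.05 and 6.65 at 2 h (change 0.95 ± 0.22, adjusted p = 0.0059; 0.092 in the fit of the 6 arrays alone; 0.00054 to 0.092), below an untreated mean of 10.04. Without array 17, 37 or 18 the members called lower numbered 6, 7 and 6, and in the fit of the 6 arrays alone 6.

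The called genes of the chaperone lists moved in opposite directions by compartment. Of 35 measured cytosolic and mitochondrial chaperone genes limma called 18 lower and 0 higher, with 0 higher also at an unadjusted p under 0.05, and the median change was -0.34. Of 39 ER chaperone and unfolded protein response genes it called 14 higher and 0 lower, with 0 lower also at an unadjusted p under 0.05, and the median change was 0.31. The other 25 ER members were not called, among them the chaperone genes Hspa5 (-0.09), Canx (-0.06), Calr (0.25) and Hsp90b1 (0.40). Hspd1, the mitochondrial chaperonin HSP60, had 13.23, 13.13 and 12.96 at 6 h, against 13.79, 13.87 and 13.91 at 2 h (change -0.76 ± 0.11, adjusted p = 7.1e-05). Fkbp4 and Ahsa1, cochaperones of HSP90, changed by -0.84 ± 0.14 and -0.75 ± 0.13 (adjusted p = 0.00030 and 0.00054). Hspa9, the mitochondrial HSP70, changed by -0.74 ± 0.15 (adjusted p = 0.0022). In the fit of the 6 arrays alone 10 members of the first list were called lower and 2 of the ER list higher.

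In the ER, Edem2, which directs misfolded glycoproteins to degradation, had 8.25, 8.65 and 9.02 at 6 h, against 7.44, 7.74 and 7.70 at 2 h (change 1.01 ± 0.17, adjusted p = 0.00045). Edem3, of the same mannosidase family, had 9.38, 9.47 and 9.84 at 6 h, against 8.46, 8.64 and 9.10 at 2 h (change 0.83 ± 0.18, adjusted p = 0.0043; 0.074 in the fit of the 6 arrays alone; 0.00018 to 0.074). Selenos, a selenoprotein of the degradation complex, changed by 0.88 ± 0.17 (adjusted p = 0.0016; 0.050 in the fit of the 6 arrays alone; 4.5e-05 to 0.050), beside 0.33 in Kin- cells. The ER list's median in Kin- cells was 0.12, and the difference between the WT and Kin- changes was called for 2 of its members. Without array 17, 18 or 38 the ER members called higher numbered 9, 8 and 6.

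Lysosomal genes rose in part. Of 41 measured genes of the lysosome and its proton pump limma called 12 higher and 0 lower, with 4 lower at an unadjusted p under 0.05. The list's median change was 0.05, and with the block 4 members were called higher. Atp6v0a2, a membrane subunit of the pump, had 9.53, 9.33 and 9.34 at 6 h, against 8.39, 8.66 and 8.16 at 2 h (change 1.00 ± 0.13, adjusted p = 2.6e-05). Atp6v0d1, another subunit, had 10.85, 10.78 and 10.93 at 6 h, against 10.26, 10.30 and 10.33 at 2 h (change 0.56 ± 0.10, adjusted p = 0.00060). Scarb2, the receptor that carries glucocerebrosidase, changed by 0.90 ± 0.21 (adjusted p = 0.0070). Npc1, the cholesterol transporter, changed by 0.69 ± 0.15 (adjusted p = 0.0032), and 0.080 with the block (0.00030 to 0.11). Without array 38 the list had 7 members called higher, and in the fit of the 6 arrays alone 4.

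Cell cycle genes are given by phase. Of 28 measured genes of G1 cyclins, CDK inhibitors, Rb and E2F, 8 were called lower and 1 higher. Ccne2, cyclin E2 of the G1/S transition, had 7.42, 7.20 and 6.89 at 6 h, against 9.30, 8.73 and 8.49 at 2 h (change -1.67 ± 0.28, adjusted p = 0.00035), and averaged 5.45 at 24 h. E2f3, an activator E2F, had 6.14, 6.33 and 5.92 at 6 h, against 6.90, 7.15 and 7.19 at 2 h (change -0.95 ± 0.11, adjusted p = 9.7e-06). Skp2, which targets p27 for degradation, had 8.76, 8.54 and 8.19 at 6 h, against 9.56, 9.35 and 9.28 at 2 h (change -0.90 ± 0.22, adjusted p = 0.010), and 0.066 without array 38 (6.3e-07 to 0.066). The member called higher was Rb1, the retinoblastoma gene, at 0.53 ± 0.16 (adjusted p = 0.032). Its call was lost with the block, at 0.056, and without array 17, 2, 37, 18 or 38, at 0.050 to 0.16 (0.011 to 0.16 over the alternatives). Cdkn1b, which encodes p27, and Ccnd3, cyclin D3, were not called, with changes of 0.10 ± 0.39 and -0.07 ± 0.15 (adjusted p = 0.87 and 0.76). In the fit of the 6 arrays alone 5 members of the list were called lower.

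Of 49 measured genes of DNA replication and nucleotide supply 9 were called lower and 1 higher (median -0.30), and with the block 16 were called lower. Orc2, of the origin recognition complex, had 8.90, 9.08 and 8.98 at 6 h, against 9.74, 9.65 and 9.61 at 2 h (change -0.68 ± 0.11, adjusted p = 0.00028). Ung, the uracil glycosylase, had 8.50, 6.68 and 7.10 at 6 h, against 9.44, 8.57 and 8.27 at 2 h, and was not called (-1.34 ± 0.51, adjusted p = 0.091). It passed with the block, at 0.039, and without array 3, at 0.020 (0.00040 to 0.27). The member called higher was Orc5, at 0.42 ± 0.12 (adjusted p = 0.019), which was lost without array 17 or 3, at 0.095 and 0.097, and with the block, at 0.10 (0.0091 to 0.11). Without array 17, 18 or 38 the members called lower numbered 5, 4 and 3.

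Of 58 measured genes of mitosis and G2/M 7 were called higher and 1 lower (median 0.16), beside 7.64% and 6.38% over all genes. Cdc25b, the phosphatase that starts entry into mitosis, had 9.09, 9.01 and 8.76 at 6 h, against 8.10, 7.93 and 7.96 at 2 h (change 0.96 ± 0.14, adjusted p = 8.5e-05). Cenpf, a kinetochore protein, had 9.76, 10.56 and 10.60 at 6 h, against 9.06, 9.51 and 9.66 at 2 h (change 0.90 ± 0.22, adjusted p = 0.0089), with adjusted p of 0.052 and 0.059 without arrays 18 and 38 (0.00011 to 0.13). Knstrn, a spindle protein, changed by 0.93 ± 0.21 (adjusted p = 0.0056; 0.081 with the block; 0.00027 to 0.10). The means of Cenpf at 0, 2, 6 and 24 h were 9.46, 9.41, 10.31 and 8.50, so this rise did not last to 24 h. The member called lower was Ncapg2, a condensin II subunit, at -0.63 ± 0.19 (adjusted p = 0.036), lost with the block, at 0.065, and without array 17, 37, 3 or 38, at 0.068 to 0.16 (0.011 to 0.16). Without array 17, 2, 18 or 38 the members called higher numbered 4, 4, 3 and 2, and without array 3 they numbered 11.

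**Figure D4:**
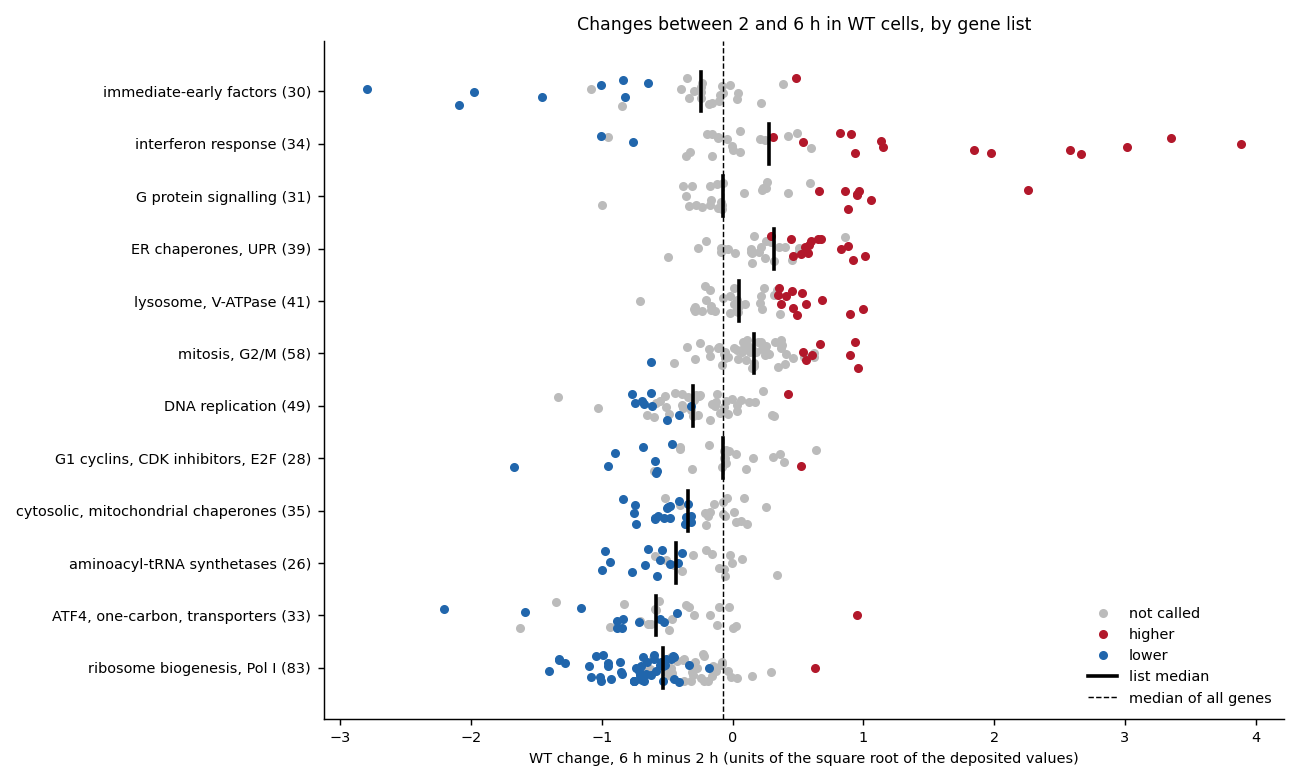
Changes of single genes in WT cells, 6 h minus 2 h, in units of the square root of the deposited values, for 12 lists with the number of measured genes in brackets. Each point is a gene (red, called higher; blue, called lower; grey, not called), the vertical scatter within a row has no meaning, black bars are list medians and the dashed line is the median of all genes at -0.08. In the ribosome biogenesis row 46 of 83 genes are called lower, and the interferon row reaches furthest right.

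Recoveries, genes pushed down at 2 h and higher again at 6 h, numbered 82 with a median change of 0.93, and 49 of them were within 0.5 of the untreated level at 6 h. Ms4a6b, a lymphocyte membrane protein of the MS4A family, had 9.44, 10.06 and 10.18 at 6 h, against 6.11, 8.30 and 7.93 at 2 h, with an untreated mean of 9.65 and a 24 h mean of 11.71 (change 2.44 ± 0.50, adjusted p = 0.0023; 0.072 in the fit of the 6 arrays alone; 3.2e-06 to 0.072). Etfbkmt, a mitochondrial lysine methyltransferase, had 5.92, 6.15 and 6.49 at 6 h, against 3.45, 3.86 and 4.35 at 2 h (change 2.30 ± 0.23, adjusted p = 2.2e-06). Scrn3, a secernin, had 7.62, 6.68 and 7.56 at 6 h, against 5.13, 5.05 and 4.98 at 2 h (change 2.24 ± 0.26, adjusted p = 1.0e-05). Map2k6, the kinase above p38, had 7.80, 8.22 and 8.65 at 6 h, against 5.93, 6.53 and 6.33 at 2 h (change 1.96 ± 0.28, adjusted p = 6.8e-05). Tmem229b, a membrane protein, had 8.54, 8.20 and 8.70 at 6 h, against 6.53, 6.34 and 6.84 at 2 h (change 1.90 ± 0.17, adjusted p = 1.1e-06). For these 5 genes every 6 h array lay more than 1 unit above every 2 h array.

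The same step in Kin- cells gave no called gene. In those cells limma called 0 of 22626 probe sets between 6 and 2 h, with 600 at an unadjusted p under 0.05, and between 0 and 4 under the alternatives. The difference between the WT and Kin- changes was tested on its own and passed for 526 of 12393 genes (4.24%), 301 with the WT change above (2.43%) and 225 with it below that of Kin- cells (1.82%). Gbp2 differed by 3.87 (adjusted p = 0.012), Rag1 by -2.78 (4.6e-05), Maff by -2.92 (0.00024) and Itgb2 by 1.23 (4.6e-05). Of the decaying genes 34 of 69 differed from Kin- cells, and of the later-wave genes 176 of 604. These genes were chosen by their WT change, which is part of the difference, so the choice itself raises these shares and nothing is read from them. Many genes called in WT cells had no called difference. Among them were Fos (limma adjusted p = 0.059), Gbp2b (0.077), Iigp1 (0.20), Gbp6 (0.14) and Shmt1 (0.14). Others were Irf1 (0.38), Pde4b (0.38), Fosb (0.21), Dusp10 (0.085) and Ier2 (0.055), and these names are examples, not the full list. Among ribosome biogenesis genes 20 differed, each with the WT change below. Without array 38 the difference was called for 531 probe sets, against 869 with it (3.84% of all probe sets; 1.99% above and 1.85% below).

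**Figure D5:**
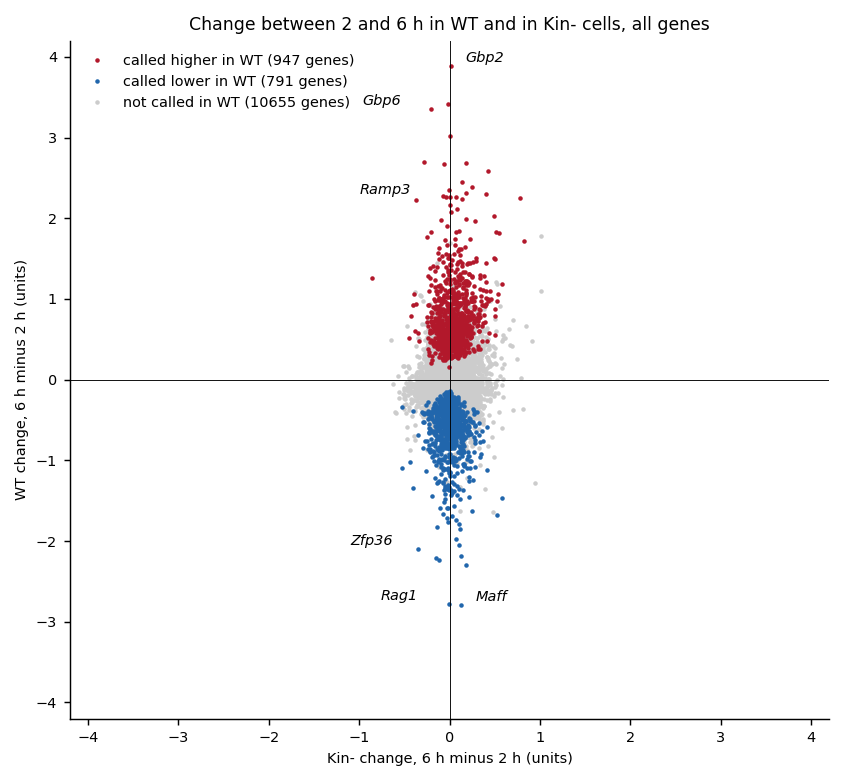
Change of each of 12393 genes between 2 and 6 h, 6 h minus 2 h, in Kin- cells (horizontal) and in WT cells (vertical), in units of the square root of the deposited values. Red points are the 947 genes called higher and blue points the 791 called lower in WT cells. The cloud is upright, since no gene was called in Kin- cells, and Gbp2, Maff and Rag1 lie at the ends close to a Kin- change of 0.

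Markers of the T lineage were set beside those of other cell types by level. Of 9 measured T-lineage markers 7 at 6 h and 8 at 2 h reached the median of all probe sets and arrays. Their summed levels were 82.6 to 84.4 at 6 h, against 81.2 to 83.1 at 2 h. Cd5 was below that median, with means of 3.35 at 6 h and 3.25 at 2 h. Cd4 lay close to it, with means of 5.41 and 5.57, and was below it at 6 h. Cd8a had 6.05 and 6.28, against 9.17 or more for the remaining T-lineage markers. Reaching the median is thus a low bar, which some markers of other lineages also passed. Cd247, the CD3ζ chain, was called higher (0.84 ± 0.25, adjusted p = 0.028), which was lost without array 17, 2, 18 or 3, at 0.064 to 0.10, and with the block, at 0.085 (0.0080 to 0.10). Of 12 myeloid markers 1 lay at or above that median and 1, Adgre1, was called lower, from levels near its untreated mean of 5.16 (-0.24 ± 0.07, adjusted p = 0.036). Its call was lost with the block, at 0.17, and without array 17, 37, 18, 3 or 38, at 0.074 to 0.18 (0.00040 to 0.27). Of the B-cell, fibroblast and erythroid marker lists limma called 0 members, with 0, 2 and 1 at an unadjusted p under 0.05. The fibroblast list of that count had 10 measured genes, with Thy1, which is also a T-lineage marker. The 9 fibroblast markers below leave Thy1 out. At 6 h and at 2 h, 2 of 9 B-cell markers and 0 of 9 fibroblast and 6 erythroid markers lay at or above that median. The lower quartile of all levels ran from 3.01 to 3.07 on the 6 h arrays, against 3.07 to 3.24 on the 2 h arrays, where arrays 17 and 37 were the high ones. In the dimmer part of the probe sets 112 were called higher and 311 lower, with a median change of -0.10, and in the brighter part 1329 and 1196, with a median of -0.02. The part of this shift in the calls of dim genes was not tested. Without array 38 the fit called 1895 probe sets, against 2948 with it (13.0%; 6.37% higher and 6.66% lower), of which 897 were lower, against 1507, and without array 2 it called 2429 lower.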

How the data were processed

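The arrays (26) each measured RNA with 22626 probe sets. The authors deposited 1 table of processed scores, used here as given. How the deposited scores were made, and their scale, is not given in the sources used here. Their square roots (0.612 to 16.4) were taken as log2-like levels, an assumption. Probe sets were named from the platform annotation (20380 with 1 gene symbol, 691 with several, 1555 with none). For 4956 of 12393 genes with several probe sets, the one with the highest mean over 26 arrays stood for the gene.

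One fit with 8 group means over all arrays was made with limma 3.58.1 in R 4.3.3 (lmFit, eBayes), Benjamini-Hochberg adjusted over all probe sets, called under 0.05. p-values measure the spread between arrays, which may be technical, and the number of arrays limits precision. Arrays are named by number as in the labels. WT arrays of consecutive numbers (2 and 3, 17 and 18, 37 and 38) deviated together from their group means (r = 0.599, 0.311 and 0.330). Arrays 18 and 37 (0.278) and 38 and 17 (0.254), of unlike series, did so nearly as much. Arrays 2 and 3 deviated against the arrays of the other series (r = -0.440 to -0.387). Deviations from a group's own mean cancel within that group, so these r values constrain one another. The negative values are therefore not read as a separate pattern. The labels do not state pairs. The block of these series was used as a paired alternative. It was fitted on the 6 WT arrays at 2 and 6 h alone, so a call lost with it also reflects the fewer arrays. Arrays 1 to 14 and 16 to 47 are number ranges in the labels. The pipeline was tested on simulated data.

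Members and gene lists were chosen with earlier results of these data known, so list counts carry no test. Genes were named by a rule: the 12 largest called rises and falls with groups that did not overlap, up to 4 called members of a list, the 6 largest of each pattern, and 35 anchor genes. Irf1, Ppp1r15a, Ier5, Ifi204, Taf1b, Orc5, Ncapg2, Rb1, Casp9 and Cd247 were named after their values were seen, and so were the genes listed for a promoter match. Ranges of adjusted p "over the alternatives" leave out the fit on arrays 1 to 14, which has 1 array at each time. The search for the interferon element and the split into dim and bright probe sets were added after the data were seen.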

Additional observations from a re-analysis of the deposited data

Results flagged for a closer look

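The change between 2 and 6 h in WT cells differed from that in Kin- cells, in a test of the difference itself (limma, adjusted over 22626 probe sets), for 869 probe sets. The differences below are WT minus Kin-, in units of the square root of the deposited values, for those genes described above that passed. Among early and feedback genes the differences were Maff -2.92, Zfp36 -1.75, Nr4a1 -2.05, Ppp1r15a -2.20, Sgtb -2.47, Bard1 -1.89, Nup98 -1.75, Socs1 -1.29, Per1 -1.29 and Nr1d2 -1.52, each with a fall in WT cells. Among the genes that rose late or further they were Gbp2 3.87, Gbp3 2.73, Parp14 2.98, Il12rb1 2.35, Pglyrp2 2.14, Ramp3 2.29, Wif1 2.25, Ctla2a 1.51, Ctla2b 2.13, Rgs14 1.04, Prkar1a 0.60, Cd37 1.62, Itgb2 1.23, Trp53inp1 1.37 and Mxd4 0.89. T-lineage, cytokine and other genes gave Rag1 -2.78, Il10 -2.15, Stra6 -2.12, Zdhhc14 -2.31, Dtx1 1.40 and Ifi204 -1.13. Genes of ribosome production, tRNA charging and folate metabolism gave Polr1a -1.44, Nolc1 -1.33, Exosc5 -1.31, Mdn1 -1.88, Iars -1.02, Yars -0.90, Shmt2 -1.57 and Mthfd1 -1.25. Chaperone, ER and lysosomal genes gave Hspd1 -0.83, Fkbp4 -0.77, Hspa9 -0.77, Edem2 1.13, Atp6v0a2 1.16, Npc1 0.75 and Atp6v0d1 0.55. Cell cycle genes gave Ccne2 -1.60, E2f3 -1.09, Skp2 -1.17, Orc2 -0.70 and Cdc25b 0.80. Recoveries and cell death genes gave Etfbkmt 1.90, Map2k6 1.68, Scrn3 2.09, Tmem229b 1.94, Bid 1.15, Bak1 0.66 and Cflar 0.92.

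For 9 of the genes described above, 1 of the 4 untreated WT arrays stood apart from the other 3 relative to their own range (its gap to the nearest array, as a share of the range of the 4, passed Dixon's critical value). That critical value is set so that about 1 group in 20 passes by chance, and a gap can be small in itself where the other arrays lie close together, as for Zfp36. Array 36 was apart for Zfp36 (6.64), Nr4a3 (3.23) and E2f3 (6.06), array 16 for Iigp1 (3.15) and Orc2 (10.01), array 1 for Gzmb (4.61) and Vars (10.07), and array 13 for Gbp2 (3.17) and Hspa9 (12.32). The change from 2 to 6 h is a difference of the 6 h and 2 h means, and the untreated arrays enter it through the shared estimate of the spread.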

How the results depend on the processing

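The direction of the called changes described above held under every alternative run, except that of Xiap, which was -0.18 as the mean of its probe sets. Of 92 called genes in the text, 71 kept their call with the replicate block, which was fitted on the 6 arrays alone. In the fit of the same 6 arrays with no block 57 kept it, and 92 with a term for the array number range. The block changed no call other than those given above. Genes with no call changed sign on arrays 1 to 14 alone for Jun (0.026), Ptcra (-0.96), Ccnd3 (0.41) and Gzmb (-0.56), and after quantile normalization for Ccnd3 (0.00098). Leaving out 1 array gave changes of -0.16 to 0.32 for Cdkn1b, -0.49 to 0.92 for Igtp, -0.26 to 0.78 for Ptcra, -0.0081 to 0.62 for Sgip1, -0.25 to 0.050 for Ccnd3, -0.12 to 1.18 for Gzmb and -0.055 to 0.10 for Egr1.

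Arrays 1 to 14 alone, with 1 array at each time, gave 0 calls of limma for every count here (4342 probe sets at an unadjusted p under 0.05), which says nothing of stability. The fit of the 6 arrays alone called 1335 probe sets (703 higher, 632 lower), and list members numbered 6 for ATF4 and folate genes, 5 for G1 genes, 2 for ER chaperones, 7 for tRNA synthetases, 10 for other chaperones, 4 for immediate-early genes, 5 for interferon genes, 4 for the lysosome and 24 for ribosome biogenesis. The array range term called 5180 (2168 higher, 3012 lower), arrays 16 to 47 alone 5363 (1835 higher, 3528 lower) and array weights 7573 (2205 higher, 5368 lower). In that order the WT and Kin- changes differed for 1884, 1974 and 4268 probe sets, ATF4 members called lower numbered 20, 18 and 17, replication members 16, 19 and 27, and mitosis members called higher 13, 15 and 20. The range term and the weights gave 13 and 16 immediate-early members and 963 and 955 later-wave genes. The log2 scale gave 5 immediate-early and 5 replication members called lower. With the replicate block 17 ATF4, 16 replication and 4 lysosomal members were called, and 2525 probe sets in all. Kin- cells had 2 called probe sets with power 0.75, 2 after quantile normalization, 2 with the range term, 1 on the log2 scale and 4 with weights. The causes of these moves were not tested.

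Leaving out 1 array at a time gave 1895 to 3594 called probe sets (998 to 1418 higher, 897 to 2429 lower), 531 to 1065 with a WT and Kin- difference, 398 to 604 later-wave and 53 to 85 decaying genes. Called members then ranged from 6 to 13 for ATF4 genes, 3 to 10 for replication, 6 to 16 for ER chaperones, 7 to 10 for tRNA synthetases, 13 to 20 for other chaperones, 5 to 11 for immediate-early genes, 7 to 15 for interferon genes, 7 to 11 for the lysosome, 2 to 11 for mitosis and 30 to 50 for ribosome biogenesis.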
